A study of Bos taurus with 8 samples.

Results

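The nuclear-encoded subunits of the oxidative phosphorylation machinery were followed across 8 one-colour Agilent bovine arrays. Members were the gene names on the array that begin with NDUFA, NDUFB, NDUFC, NDUFS or NDUFV and a number, SDHA to SDHD, and the names that begin with UQCR, COX4 to COX8 or ATP5. That rule uses names only and found 83 of 32429 gene names: 37 of complex I, 4 of complex II, 8 of complex III, 17 of complex IV and 17 of complex V. The tested gene names numbered 19375, each with a probe that the scanner software marked as well above background throughout 1 group or more, and 81 of them were members. The remaining 2, COX4I2 and COX7B2, were not tested. A few names match the letters without being classical subunits: COX4NB is called EMC8 in the RefSeq gene table, and ATP5S and ATP5SL are called DMAC2L and DMAC2. NDUFA4 is counted here with complex I by its name, although it is known as a subunit of complex IV.

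Oxidative phosphorylation couples the oxidation of NADH and succinate in the mitochondrial inner membrane to the making of ATP. Complexes I and II pass electrons to ubiquinone, complex III to cytochrome c and complex IV to oxygen, and complex V, the ATP synthase, uses the proton gradient that complexes I, III and IV build. Most subunits are encoded in the nucleus and assembled with a few encoded in mitochondrial DNA. Müller glia, the radial glia of the retina, are known for a largely glycolytic metabolism.

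The labels give the cells as primary bovine Müller glia kept for 18 to 21 days. The groups, taken from the sample titles, were Control (untreated, 2 arrays, letters A and B), TAT (the HIV-1 transactivator protein at 100 ng/ml, 3 arrays, A to C) and Gp120 (the HIV-1 envelope protein at 60 ng/ml, 3 arrays, A to C), all at 24 h. The treatment text is the same for all samples and names both proteins, and the extraction text speaks of astrocytes. Nothing states whether the letters are separate cultures or animals, so the spread behind each p-value is that between these samples and may be technical. The TAT and the Gp120 comparison share both control arrays.

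On each array 55.5% to 64.6% of spots were well above background, and no spot was saturated. Of the 13 Müller glia markers looked up that the array carries, 9 passed the background filter, with VIM, APOE, CLU and GLUL on all 8 arrays, while GFAP and RLBP1 were well above background on 2 arrays each and KCNJ10 on 1. All 12 microglia and macrophage markers passed, 11 of them on all 8 arrays. RNA came from whole cultures, in which fewer cells of a type and less RNA per cell cannot be told apart. Slide row 1 held all letter A arrays and Control B, and a separate scan read Gp120 B and C, so row and scan are partly confounded with group and letter.

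The subunits were measured well. A probe well above background on all 8 arrays was found for 80 of the 83 members (96.4%), against 52.8% of all gene names. The 3 exceptions are tissue isoforms of complex IV. COX4I2, the lung form of subunit 4, was well above background on 1 array (TAT), COX7B2, a testis form, on 2 arrays (1 TAT, 1 Gp120), and COX6A2, the heart and muscle form of subunit 6A, on 6 arrays, all but the 2 of letter C. The members also varied less within a group than other genes: the median within-group SD was 0.21 on the log2 scale, against 0.36 over all gene names tested. All levels below are log2 of the processed signal relative to the array's 75th percentile, from the gene's brightest probe, and are compared only within a gene.

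No subunit passed the test after 24 h of either protein. With TAT, 0 of 81 members had an adjusted p under 0.05 in the limma fit, as did 0 of all gene names (0%), and 0 members had an unadjusted p under 0.05, against 1.47% of all. With Gp120, 0 of 81 passed (0% of all gene names), and 2 members, NDUFA1 and COX5B, had an unadjusted p under 0.05 (2.47%), against 3.09% of all. TAT against Gp120 gave 0 of 81 (0% of all), and 0 at an unadjusted p under 0.05 against 2.95% of all. With the letter as a block 0 members passed in any of these comparisons either. At an unadjusted p under 0.05 the blocked fit gave 0 members with TAT (all gene names 4.72%), 2 with Gp120, NDUFA1 and NDUFB1 (all gene names 6.16%), and 1 between the proteins, NDUFB1 (all gene names 8.21%).

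What the members shared was a small displacement downward. With TAT their median difference was -0.10 and 63 of 81 lay below 0 (77.8%), beside a median of -0.03 and 54.6% below 0 over all gene names. With Gp120 the median was -0.09 and 56 of 81 lay below 0 (69.1%), beside -0.02 and 52.7%. With the letter as a block 66 of 81 lay below 0 with TAT (81.5%, all gene names 57.6%) and 62 of 81 with Gp120 (76.5%, all gene names 54.6%). Every TAT array was below both control arrays for 16 members (19.8%, all gene names 9.08%) and above both for 1 (1.23%, all gene names 5.08%). Every Gp120 array was below both control arrays for 14 members (17.3%, all gene names 7.67%) and above both for 1 (1.23%, all gene names 5.84%). These are descriptions without a test, since members of one machinery are not replicates of a condition. With normexp background correction the TAT median of the members (-0.06) no longer lay below that of all gene names (-0.07). With Gp120 47 of 81 then lay below 0, beside 57.6% of all gene names, with medians of -0.09 and -0.04. In the deposited log2 values 44 of 81 lay below 0 with TAT, beside 46.4% of all gene names, and 59 of 81 with Gp120, beside 54.3%. Where TAT was compared with Gp120 the members were centred near 0, with a median of 0.01 and 39 of 81 below 0 (48.1%, all gene names 52.5%). Every TAT array lay above every Gp120 array for 3 members (3.7%, all gene names 3.19%), COX5B, NDUFB1 and UQCRB, and below every one for 1 (1.23%, all gene names 3.68%), ATP5A1.

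The displacement was not spread evenly over the arrays. Relative to each member's own mean, the median member stood at 0.04 in Control A, 0.13 in Control B, -0.14 in TAT A, 0.04 in TAT B, 0.02 in TAT C, -0.17 in Gp120 A, 0.10 in Gp120 B and -0.02 in Gp120 C. TAT A and Gp120 A were the low arrays, and TAT B, TAT C and Gp120 B lay between or beside the controls. TAT A was the lowest of the 8 arrays for 20 members (24.7%, all gene names 11.8%) and Gp120 A for 22 (27.2%, all gene names 11.1%). Without TAT A the members' TAT median was -0.04, with 52 of 81 below 0, beside -0.03 and 53% over all gene names. Without Gp120 A their Gp120 median was -0.024, with 46 of 81 below 0, beside -0.015 and 51.3% over all gene names. Without Control B the medians were -0.08 for TAT, with 53 of 81 below 0, and -0.05 for Gp120. Among the arrays of scan 2 alone, which leave Gp120 A as the only Gp120 array, the Gp120 median was -0.26. With the slide row as a block the medians were -0.22 for TAT and -0.24 for Gp120, and with the scan as a block TAT minus Gp120 was 0.16, with 18 of 81 members below 0. The scan block also leaves Gp120 A as the only Gp120 array in that difference.

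**Figure D1:**
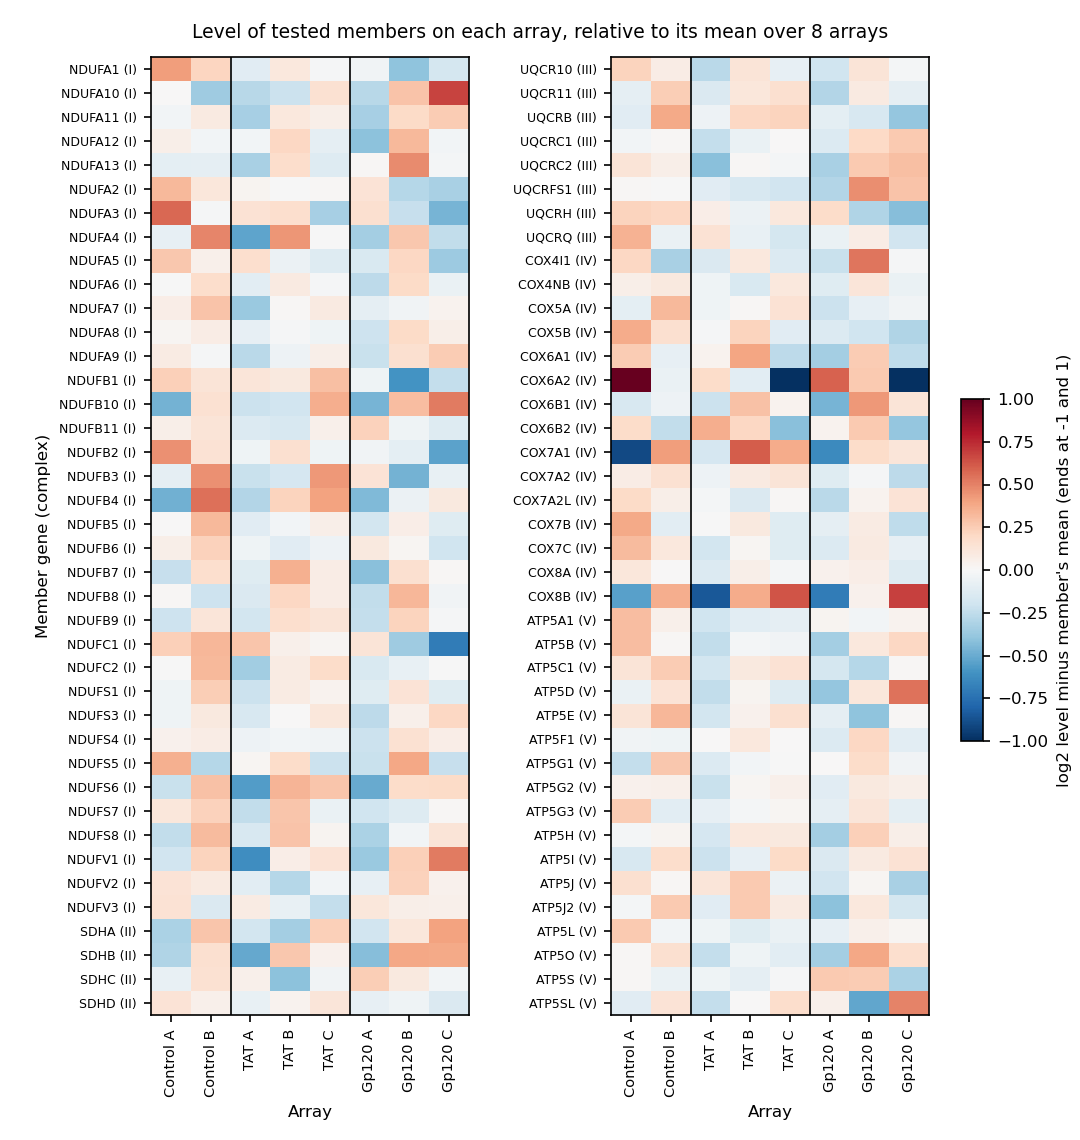
Level of 80 of the 81 tested members (rows, complex in brackets) on the 8 arrays (columns), as log2 level minus the member's mean over all arrays; red is above and blue below that mean, and colours end at -1 and 1. The columns TAT A and Gp120 A are mostly pale blue (medians -0.14 and -0.17), and strong colours are seen in COX6A2, COX7A1 and COX8B.

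Differences between arrays of the same letter show the same unevenness. Within letter A, 66 of 81 members were lower with TAT (81.5%, all gene names 56.5%), with a median of -0.18, and 66 of 81 were lower with Gp120 (81.5%, all gene names 53.2%), with a median of -0.22. Within letter B, 52 of 81 were lower with TAT (64.2%, all gene names 54.7%), with a median of -0.06, and 41 of 81 with Gp120 (50.6%, all gene names 53%), with a median of -0.01. Lower in both pairs were 42 members with TAT (51.9%, all gene names 30.7%) and 30 with Gp120 (37%, all gene names 26.7%). TAT against Gp120 had a median of 0.01 in letter A, with 39 of 81 below 0 (all gene names 53.8%). It was -0.08 in letter B, with 49 of 81 below 0 (all gene names 51.6%), and 0.04 in letter C, with 37 of 81 (all gene names 52.1%). The letter A pairs lie within slide row 1, while the letter B pairs set a row 1 control against row 2 arrays, so letter and row cannot be told apart here.

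Complex by complex, the fitted TAT difference lay below 0 for 27 of 37 members of complex I (median -0.10), 3 of 4 of complex II (-0.07), 8 of 8 of complex III (-0.17), 11 of 15 of complex IV (-0.07) and 14 of 17 of complex V (-0.10). With Gp120 it lay below 0 for 27 of 37 of complex I (-0.08), 1 of 4 of complex II (0.10), 6 of 8 of complex III (-0.18), 10 of 15 of complex IV (-0.16) and 12 of 17 of complex V (-0.04). The complex IV medians had opposite signs in the 2 letters: its TAT median was -0.22 in letter A and 0.05 in letter B, and its Gp120 median was -0.31 in letter A and 0.02 in letter B. Complex III kept its sign with TAT, at -0.18 in letter A and -0.11 in letter B, but with Gp120 it was -0.26 in letter A and 0.10 in letter B. Complex II, with 4 members, had TAT medians of -0.04 and -0.29 and Gp120 medians of 0.00 and -0.08 in letters A and B. These counts rest on each member's brightest probe, and other probes of some members had the other sign. No test between complexes was made.

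**Figure D2:**
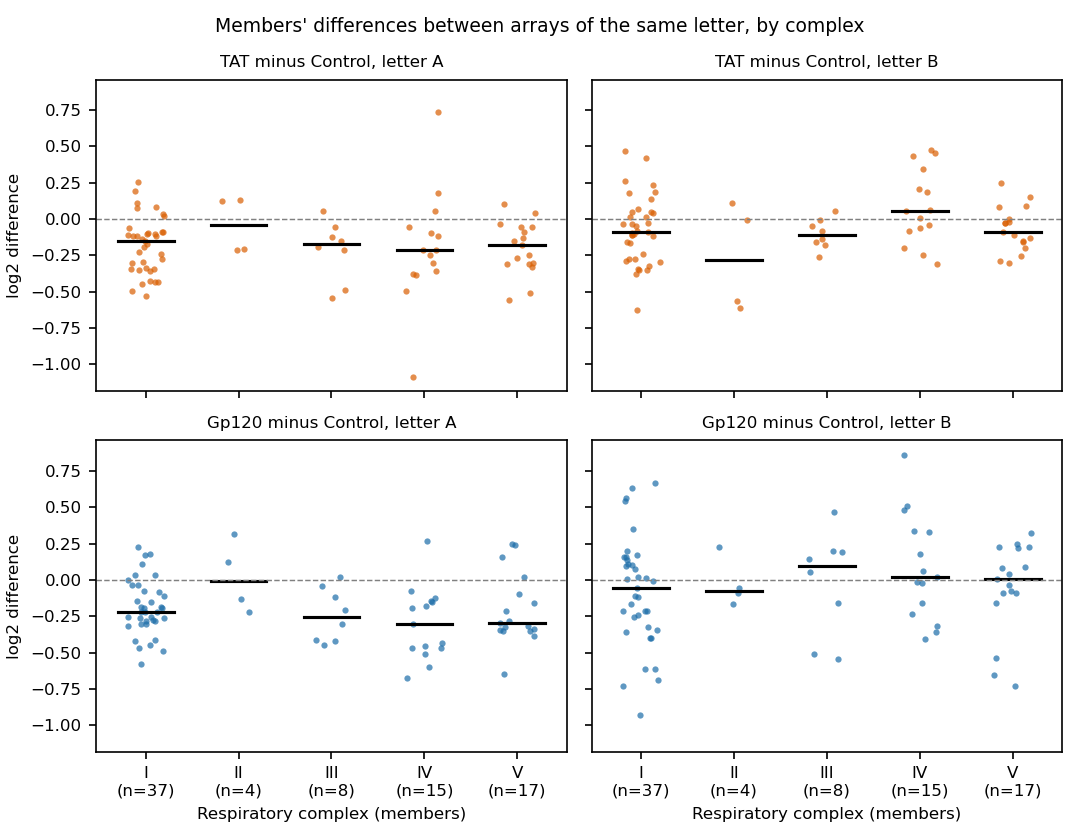
Log2 difference of each member between the treated and the control array of the same letter (vertical axis), by complex (horizontal axis); each point is 1 member and the black bar is the median of the complex. In letter A the points lie mostly below 0 (66 of 81 for each protein), while with Gp120 in letter B they straddle 0 (41 of 81 below).

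Complex I takes electrons from NADH, and 3 of the 4 members with the smallest p for a lower level with Gp120 belong to it. NDUFA1, a small accessory subunit of the membrane arm, stood at 5.24 and 5.04 in Control A and B, at 4.71, 4.93 and 4.81 in TAT A, B and C, and at 4.79, 4.42 and 4.64 in Gp120 A, B and C. All treated arrays lay below both controls, and the TAT and Gp120 arrays overlapped. The fitted Gp120 difference was -0.52 ± 0.21 (SE), with an unadjusted p of 0.0387 and an adjusted p of 0.997 in limma, and the TAT difference was -0.32 ± 0.21 (SE). A second NDUFA1 probe gave -0.13 with Gp120 and -0.10 with TAT, so the probes shared the sign and not the size. The brightest NDUFA1 probe, which carries this value, lies on an unplaced contig of the build HGSC Btau_3.1 from 101402 to 102759 on the plus strand, an interval longer than the probe. Only the first 30 of its 60 bases are shown, with no base singled out, as for the other probes below.
NDUFA1: aggcgcgtctctggagtaaaccgtttctat

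NDUFB2 and NDUFC1 are further accessory subunits of the membrane arm. NDUFB2 stood at 2.71 and 2.40 in Control A and B, 2.21, 2.42 and 2.21 in TAT A to C, and 2.22, 2.16 and 1.72 in Gp120 A to C. All Gp120 arrays lay below both controls, while TAT B lay between them. Its Gp120 difference was -0.52 ± 0.24 (SE). NDUFC1 stood at 2.89 and 2.98 in the controls, 2.93, 2.71 and 2.67 in TAT A to C, and 2.78, 2.29 and 1.96 in Gp120 A to C. Again all Gp120 arrays were lower than both controls, by -0.60 ± 0.27 (SE) in the fit. The unadjusted p was 0.0592 for NDUFB2 and 0.0604 for NDUFC1, and the adjusted p was 0.997 for both.

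NDUFB1, a membrane-arm accessory subunit, had the smallest p of all members between the 2 proteins. It stood at 4.22 and 4.12 in the controls, 4.11, 4.08 and 4.28 in TAT A to C, and 3.94, 3.39 and 3.75 in Gp120 A to C. The Gp120 arrays lay below all controls and all TAT arrays, and the TAT arrays overlapped the controls. TAT minus Gp120 was 0.46 ± 0.20 (SE), with an unadjusted p of 0.0528, or 0.0310 with the letter as a block, and an adjusted p of 0.9999 in limma, or 0.590 with the block. Its Gp120 difference from the controls was -0.48 ± 0.23 (SE).

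On the other side, the complex I members nearest to a higher level with Gp120 included NDUFA10, NDUFA13 and NDUFB10. NDUFA13, also known as GRIM-19, was the only member above both controls on all Gp120 arrays, at 5.52, 5.98 and 5.49 against 5.41 and 5.41. Its difference was 0.25 ± 0.25 (SE). A second NDUFA13 probe gave 0.08, with Gp120 arrays that overlapped the controls. The fitted Gp120 differences of NDUFA10 (0.40 ± 0.32 SE) and NDUFB10 (0.28 ± 0.37 SE) were both within 1.5 standard errors of 0, and their groups overlapped. With TAT, NDUFB8 gave 0.15 ± 0.24 (SE) and NDUFB7 gave 0.13 ± 0.27 (SE), and their groups overlapped as well. NDUFV2, the partner of NDUFV1 in the NADH-oxidizing part, was below both controls on all TAT arrays, by -0.26 ± 0.20 (SE), and overlapped them with Gp120. A second NDUFV2 probe showed the reverse. It gave -0.09 with TAT, where the groups overlapped, and -0.46 with Gp120, with all Gp120 arrays below both controls. NDUFS1, the largest iron-sulfur subunit, differed by -0.14 ± 0.21 (SE) with TAT and by -0.14 ± 0.21 (SE) with Gp120.

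Complex II oxidizes succinate and belongs to the citric acid cycle as well. SDHA, its flavoprotein, stood at 5.98 and 6.57 in Control A and B, 6.11, 5.95 and 6.53 in TAT A to C, and 6.10, 6.40 and 6.70 in Gp120 A to C. The groups overlapped, and the 2 controls lay nearly as far apart as the lowest and the highest Gp120 array. SDHB, the iron-sulfur subunit, differed by 0.00 ± 0.35 (SE) with TAT and 0.18 ± 0.35 (SE) with Gp120. The membrane anchors SDHC and SDHD gave -0.17 ± 0.23 (SE) and -0.06 ± 0.18 (SE) with TAT. With Gp120 SDHC gave 0.06 ± 0.23 (SE), and SDHD, at 3.53, 3.57 and 3.47, lay below both controls, at 3.75 and 3.66, by -0.18 ± 0.18 (SE).

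All 8 members of complex III lay below 0 with TAT, the nearest to 0 being UQCRB at -0.01 ± 0.23 (SE). That count holds for the brightest probes only. Of the kept probes, 1 of 3 lay below 0 for UQCRB, 1 of 2 for UQCR11, 2 of 3 for UQCRFS1 and 3 of 4 for UQCRC1. Every kept probe of UQCR10, UQCRH and UQCRQ lay below 0. UQCRC2, a core protein of the complex, stood at 4.63 and 4.57 in the controls, 4.09, 4.52 and 4.49 in TAT A to C, and 4.19, 4.77 and 4.81 in Gp120 A to C. Every TAT array was below both controls, most of all TAT A, whereas the Gp120 arrays lay on both sides. The TAT difference was -0.24 ± 0.27 (SE). The UQCRC2 probes did not share the sign. Of 4 kept probes, 2 lay below 0 with TAT and 2 with Gp120, where the others gave 0.57 and 0.61. UQCRFS1, the Rieske iron-sulfur protein, gave -0.16 ± 0.26 (SE) with TAT, again with all TAT arrays below the controls, and 0.15 ± 0.26 (SE) with Gp120. UQCRC1, the other core protein, gave -0.09 ± 0.21 (SE) and 0.11 ± 0.21 (SE). UQCRB, the ubiquinone-binding subunit, had all TAT arrays above all Gp120 arrays, at 4.05, 4.31 and 4.32 against 4.01, 3.94 and 3.72. On its other kept probes TAT minus Gp120 was 0.52 and 0.35, but the TAT and Gp120 arrays overlapped.

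In complex IV the smallest p with Gp120 belonged to COX5B, the zinc-binding subunit on the matrix side. COX5B stood at 5.87 and 5.65 in Control A and B, 5.48, 5.71 and 5.38 in TAT A to C, and 5.35, 5.30 and 5.19 in Gp120 A to C. The Gp120 arrays lay below all other arrays, with no overlap, while the TAT arrays overlapped the controls. The Gp120 difference was -0.48 ± 0.20 (SE), with an unadjusted p of 0.0477 and an adjusted p of 0.997 in limma. All 5 kept COX5B probes were below 0 with Gp120, from -0.23 to -0.48, and 4 of 5 with TAT. The brightest one lies at chr11:3258693-3258752 on the minus strand of HGSC Btau_3.1.
COX5B: aagaagacaacagtactgtcatctggttct

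COX7C, a small membrane subunit, was below both controls on all treated arrays. It stood at 6.17 and 5.95 in the controls, 5.67, 5.87 and 5.73 with TAT and 5.71, 5.94 and 5.76 with Gp120. The gap between Control B and the highest treated array was smaller than the gap between the controls, and the fitted differences were -0.30 ± 0.20 (SE) and -0.26 ± 0.20 (SE). Of the 3 kept COX7C probes, 2 lay below 0 with each protein. COX4I1, the regulatory subunit 4, had opposite signs in the 2 letters on its brightest probe. There TAT minus Control was -0.36 in A and 0.44 in B, and Gp120 minus Control was -0.43 in A and 0.86 in B. Its other kept probes gave fitted TAT differences of 0.13, -0.40 and -0.05, and Gp120 differences of 0.36, -0.30 and 0.16. The probe at -0.40 and -0.30 had every treated array below both controls. COX5A gave -0.07 ± 0.21 (SE) with TAT and -0.23 ± 0.21 (SE) with Gp120.

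Complex V members were led by ATP5A1 (now ATP5F1A), the alpha subunit of the catalytic head, which had the smallest p of all members with TAT. It stood at 7.31 and 7.06 in Control A and B, 6.81, 6.90 and 6.92 in TAT A to C, and 7.03, 6.99 and 7.05 in Gp120 A to C. The arrays lay in 3 separate ranges, controls highest and TAT lowest, with no overlap. The TAT difference was -0.31 ± 0.19 (SE), with an unadjusted p of 0.143 and an adjusted p of 0.9996 in limma. The Gp120 difference was -0.17 ± 0.19 (SE). The 6 ATP5A1 probes did not share the sign, since 4 lay below 0 with TAT and the others above. The brightest one lies at chr24:47456911-47456969 on the minus strand of HGSC Btau_3.1.
ATP5A1: aaactcctgtggattcacatcaaatgccag

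ATP5B (now ATP5F1B), the catalytic beta subunit, was below both controls on all TAT arrays, at 6.36, 6.59 and 6.57 against 6.91 and 6.62, and gave -0.26 ± 0.24 (SE). With Gp120 it gave -0.17 ± 0.24 (SE), with Gp120 A at 6.26 and the other 2 arrays at 6.71 and 6.81, both between the controls. Of the 5 kept ATP5B probes, 3 lay below 0 with TAT and 3 with Gp120. ATP5C1 (now ATP5F1C), the gamma subunit of the rotating stalk, was below both controls on all Gp120 arrays on its brightest probe. There it stood at 5.46, 5.35 and 5.65 against 5.76 and 5.89, a difference of -0.34 ± 0.21 (SE). Its other kept probes gave Gp120 differences of 0.07, -0.01 and -0.14, each with Gp120 arrays that overlapped the controls. ATP5F1 (now ATP5PB), a stalk subunit, was the only member above both controls on all TAT arrays, at 4.96, 5.06 and 4.95 against 4.92 and 4.91. That margin is smaller than the spread of its Gp120 arrays, which ran from 4.82 to 5.16. A second ATP5F1 probe gave -0.09 with TAT, so the probes did not share the sign.

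**Figure D3:**
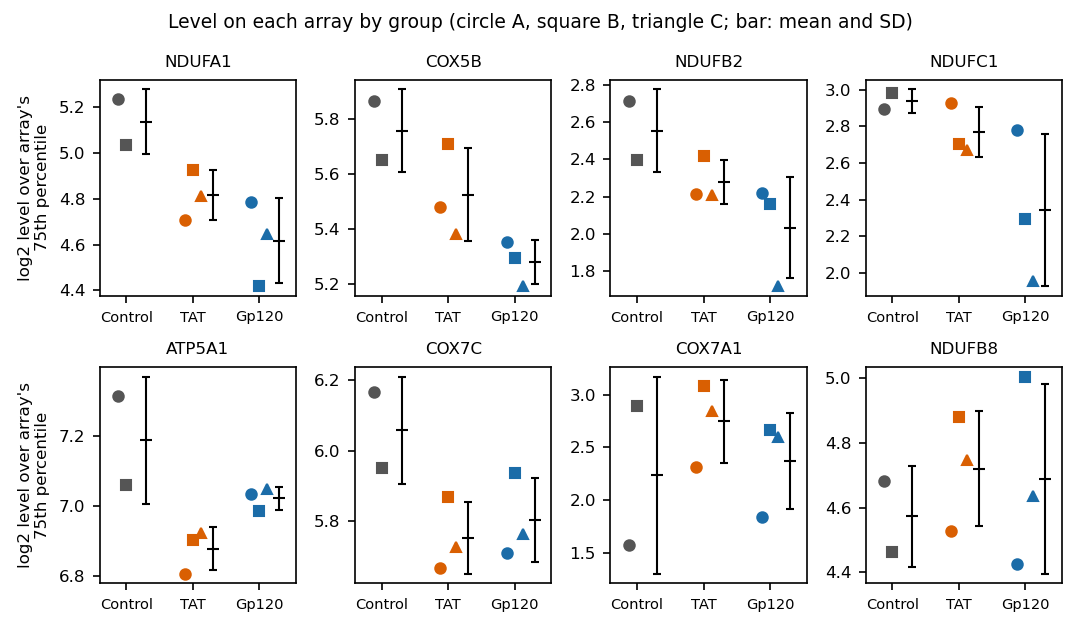
Log2 level over the array's 75th percentile (vertical axis, a separate scale for each panel) of 8 members on each array, by group; circles, squares and triangles are letters A, B and C, and the bar to the right of each group is its mean and SD (n = 2 for Control, 3 for TAT and Gp120). In NDUFA1, COX5B, NDUFB2 and NDUFC1 all Gp120 arrays are below both controls, and in COX7A1 and NDUFB8 the groups overlap.

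The precision of the fit bounds what could be seen. The median 95% interval of a member reached 0.54 to either side of its difference for TAT and for Gp120 against the controls, and 0.49 for TAT against Gp120. The interval stayed within 2-fold in both directions for 77 of 81 members with TAT, 67 of 81 with Gp120 and 77 of 81 between the proteins. COX6A2, COX7A1 and COX8B had the widest spread within groups, with pooled SDs of 0.81, 0.56 and 0.72.

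These same members differed between the replicate letters. In a fit with group and letter, 5 of 81 members passed the F test between letters at an adjusted p under 0.05 (6.17%, all gene names 15.4%), and 12 had an unadjusted p under 0.05 (14.8%, all gene names 34.9%). The 5 were COX8B, COX7A1, COX6A2, NDUFS6 and NDUFV1, of which COX6A2 passed the background filter only through Control, which has no letter C array. These calls were not stable: leaving out any 1 array left 0 to 2 members called, and with the slide row as a block 0 members were called. The shares over all gene names in those refits are not given here. Over all members the median difference was 0.17 for B minus A and 0.13 for C minus A, beside -0.03 and 0.02 over all gene names, with 60 of 81 (74.1%, all gene names 47.5%) and 55 of 81 (67.9%, all gene names 51.3%) above 0.

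Of the 5, 3 are the heart and muscle isoforms of complex IV subunits, each of which has a widely expressed partner among the members. The first 30 bases of the brightest probe of each partner are shown, since the result turns on telling the isoforms apart. Aligned without gaps, the full probes matched at best at 21 of 55 bases for COX6A1 and COX6A2, 19 of 51 for COX7A1 and COX7A2, and 17 of 47 for COX8A and COX8B. No probe of any member had the sequence of a probe under another gene name.
COX7A1: tgcaggacccgaacaggcatcaataaatgt
COX7A2: tctttggggatcaatatttattgacttgta
COX8B: gcgggccccacacctggcacagacaggaag
COX8A: tttataaggccctgctcagtagggcctccc
COX6A2: tcaaccctctgcccacgggctacgaaaagc
COX6A1: gatcttccatccctttgcttatagcaggaa
NDUFS6: gtgtgtatttaagagagtaatggctatgat
NDUFV1: aggcaagcagctttctgagcccacggggct

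In HGSC Btau_3.1 these probes lie at chr18:46231291-46231350 on the minus strand for COX7A1, chr9:14624798-14624857 on the minus strand for COX7A2, chr29:44086962-44087020 on the plus strand for COX8A, chr25:29304624-29304683 on the minus strand for COX6A2, chr17:66018893-66018952 on the plus strand for COX6A1 and chr29:47429150-47429209 on the plus strand for NDUFV1. COX8B and NDUFS6 lie on unplaced contigs, from 146215 to 146268 and from 28695 to 28754, both on the plus strand. The files do not say whether a probe lies in a coding part or a UTR.

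COX7A1, the heart and muscle form of subunit 7A, stood at 1.58, 2.31 and 1.84 in letter A (Control, TAT and Gp120 in turn), 2.90, 3.08 and 2.66 in letter B, and 2.85 and 2.60 in letter C (TAT and Gp120). All letter A arrays were below all others. B minus A was 0.97 ± 0.17 (SE) and C minus A 0.73 ± 0.20 (SE), with an adjusted p of 0.0317 in limma. A second COX7A1 probe gave 0.92 and 0.78. With the letter as a block COX7A1 was also the member with the highest TAT difference, 0.43, with an unadjusted p of 0.0778. Its partner COX7A2 kept to a range of 4.90 to 5.31 over all 8 arrays, and had a letter adjusted p of 0.814.

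COX8B, the heart and muscle form of subunit 8, stood at -2.96, -3.26 and -3.11 in letter A, -2.05, -2.05 and -2.37 in letter B, and -1.79 and -1.73 in letter C. The letters did not overlap, with A lowest and C highest. B minus A was 0.96 ± 0.16 (SE) and C minus A 1.42 ± 0.19 (SE), with an adjusted p of 0.0122 in limma. The other kept COX8B probe gave 1.40 and 1.46. COX8A, its partner, ranged from 4.80 to 5.05 over all arrays, with a letter adjusted p of 0.901.

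COX6A2 went the other way. It stood at -3.43, -4.52 and -4.11 in letter A, -4.76, -4.80 and -4.43 in letter B, and -5.76 and -5.76 in letter C, where both arrays were not well above background. Letter C was lowest, and letters A and B overlapped. Both letter C signals exceeded the lowest signal well above background on their array, so no bound was taken. As measured, the mean of COX6A2 was 3.35-fold higher in letter A than in letter C, which has no control array. With group and letter in the fit, C minus A was -1.62. The adjusted p of the letter test was 0.0339 in limma. COX6A2 passed the background filter only through Control, the group without a letter C array. Its entry thus rested on letters A and B alone, and this p is not support for a lower level in letter C. A second COX6A2 probe, well above background on 2 arrays, gave C minus A as 0.17 and so did not share the sign. COX6A1 ranged from 3.70 to 4.44, with a letter adjusted p of 0.420. COX6B2, the testis form of subunit 6B, also stood lowest in letter C, at -0.16 and -0.12 against 0.02 to 0.62 elsewhere, with a letter adjusted p of 0.126, and COX6B1 had one of 0.208.

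The other 2 members belong to complex I. NDUFS6, a zinc-binding subunit, stood at 2.69, 2.35 and 2.41 in letter A, 3.20, 3.25 and 3.09 in letter B, and 3.183 and 3.096 in letter C. Letter A was below all others, by 0.70 ± 0.15 (SE) for B and 0.72 ± 0.18 (SE) for C, with an adjusted p of 0.0425 in limma. NDUFV1, which binds FMN and takes the electrons from NADH, stood at 4.89, 4.46 and 4.70 in letter A, 5.30, 5.14 and 5.31 in letter B, and 5.21 and 5.59 in letter C. Letter A was again below all others, by 0.57 ± 0.15 (SE) for B and 0.79 ± 0.18 (SE) for C, with an adjusted p of 0.0467. Second probes gave 0.74 and 0.68 for NDUFS6 and 0.42 and 0.81 for NDUFV1. SDHB was also lowest in letter A (0.68 for B minus A and 0.62 for C minus A) but did not pass, with an adjusted p of 0.0563.

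**Figure D4:**
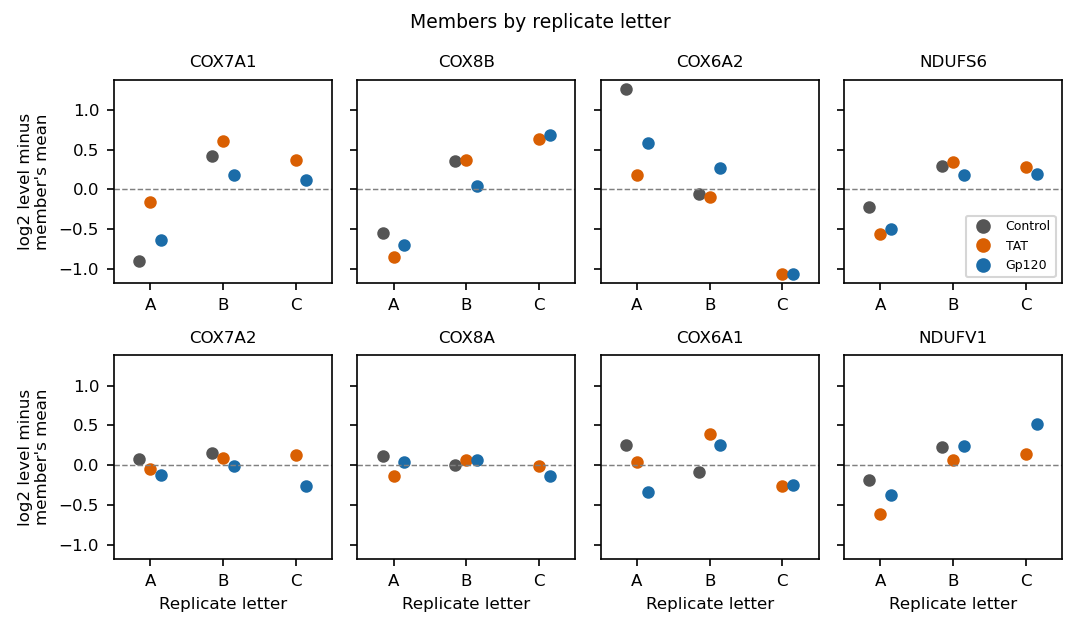
Log2 level minus the member's mean over 8 arrays (vertical axis, shared) of 8 members by replicate letter (horizontal axis); each point is 1 array, coloured by group. COX7A1, COX8B, NDUFS6 and NDUFV1 are lowest in letter A and COX6A2 is lowest in letter C, while COX7A2 and COX8A stay near 0 in all letters.

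Markers of other cells also differed between letters, and their part in these results was not tested. The summed level of the 4 tested markers of retinal pigment epithelium ran from 6.32 to 6.53 in letter A, 6.79 to 7.67 in letter B and 5.56 to 5.58 in letter C, and most of it was TTR, while RPE65 was well above background on 2 arrays and TYRP1 and DCT on 0. That of the 5 tested photoreceptor and neuron markers was 1.80 to 2.39 in letter A, 1.02 to 2.94 in letter B and -0.90 to -0.86 in letter C. Beside the group comparisons, all 9 tested fibroblast markers lay above 0 with TAT, with a summed level of 7.32 to 7.36 in the controls, 7.75 to 8.22 with TAT and 7.30 to 7.65 with Gp120. Its part in the members' lower TAT median was not tested either.

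The rest of the pathway gave no calls in the 3 comparisons between groups. Of the 37 tested assembly factors of the 5 complexes, 0 passed in any of those 3 (all gene names 0%). Between letters 5 of 37 passed, beside 15.4% of all gene names. Below 0 lay 23 with TAT (median -0.06) and 18 with Gp120 (0.01), beside 54.6% and 52.7% of all gene names. The 11 tested subunits encoded in mitochondrial DNA were balanced, with 5 below 0 with TAT (0.01) and 5 with Gp120 (0.00). Of the 13 citric acid cycle genes 12 lay below 0 with TAT (-0.12) and 9 with Gp120 (-0.06), and of the 19 import and carrier genes 16 and 9. CYC1, the cytochrome c1 of complex III, whose name falls outside the rule, gave 0.08 ± 0.25 (SE) with TAT and 0.13 ± 0.25 (SE) with Gp120. NDUFAB1, the acyl carrier protein of complex I, gave -0.08 ± 0.23 (SE) and 0.06 ± 0.23 (SE). None of these lists had a gene past the threshold in TAT against Gp120.

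Among the 11 tested regulators of mitochondrial biogenesis, 9 lay below 0 with TAT and 7 with Gp120. TFAM, which packages and transcribes mitochondrial DNA, stood at -0.64 and -1.21 in Control A and B, -1.14, -1.38 and -1.80 in TAT A to C, and -1.10, -1.89 and -2.14 in Gp120 A to C. Controls overlapped both treated groups, and the differences were -0.51 ± 0.37 (SE) and -0.79 ± 0.37 (SE), with adjusted p of 0.9996 and 0.9974 in limma. GABPA, the DNA-binding part of nuclear respiratory factor 2, was below both controls on all TAT arrays, at -1.17, -1.10 and -0.94 against -0.75 and -0.56, a difference of -0.41 ± 0.20 (SE), and gave 0.06 ± 0.20 (SE) with Gp120. SUCLA2, a citric acid cycle enzyme subunit, gave -0.55 ± 0.23 (SE) with Gp120 and -0.07 ± 0.23 (SE) with TAT. NRF1 was well above background on 3 arrays and was not tested.

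PPARGC1A, the coactivator of mitochondrial biogenesis, differed between letters. It stood at -2.12, -1.10 and -1.27 in letter A, 0.09, 0.07 and 0.35 in letter B, and -1.74 and -2.24 in letter C. Letter B was above all others, with an adjusted p of 0.00913 for the letters in limma, and its differences from Control were 0.09 ± 0.92 (SE) with TAT and -0.04 ± 0.92 (SE) with Gp120, with groups that overlap. NDUFA4L2, a paralog of NDUFA4 known to be induced by hypoxia, was lowest in letter A, at 1.45, 1.63 and 0.74, against 3.098, 3.72 and 2.83 in letter B and 2.69 and 2.77 in letter C, with a letter adjusted p of 0.0116.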

How the data were processed

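Levels came from the scanner files. Per the file headers, their spot intensities were background-subtracted by Feature Extraction version 11.5.1.1 under protocol GE1_1105_Oct12 before the authors deposited them. The authors also deposited a second table of log2 values per gene name. How it was made is not stated in these sources. Over 19373 gene names, its deviations from the gene mean correlated with those of the same array's scanner values at 0.69 to 0.84, above every other array, with no centring per gene, and its column medians ran from -0.65 to -0.59, so it served as an alternative only.

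Processed signals were log2 transformed, each array's 75th percentile was subtracted, and control and outlier spots (4 to 37 per array) were left out. A probe had to be marked well above background throughout 1 group or more, which 31593 of 51282 did, 31548 of them with no missing value. The brightest kept probe stood for each name. Of the 83 members, 77 were matched to the RefSeq table by accession, 5 by symbol and 1 by synonym. No genome was used. limma 3.58.1 (R 4.3.3) fitted all 8 arrays by group, with Benjamini-Hochberg adjustment over 19375 gene names and a threshold of 0.05, two-sided. The scripts were tested on simulated data. A second fit added the letter. Deviations from the group mean correlated at 0.34 to 0.72 between same-letter arrays (7 pairs) and at -0.61 to 0.40 between others. Control B correlated at 0.40 with TAT C and 0.38 with Gp120 C, above its 0.34 with TAT B and with Gp120 B. With 2 controls, their deviations mirror each other, which forces opposite signs. The letters thus pair the samples only in part, and slide row is partly confounded with letter. The number of arrays limits the precision.

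Named were, per comparison and direction, the 4 members with the smallest p where none passed, the defining subunits and isoform pairs of each complex, members passing the letter test, and the 2 list genes with the smallest p. Genes whose arrays did not overlap, such as ATP5F1, and SDHB and NDUFA4L2 were named after their values were seen. Members and lists were chosen with earlier results of these data known. The values of 1 member are not reported here by name.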

Additional observations from a re-analysis of the deposited data

How the results depend on the processing

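No member was called in TAT minus Control, Gp120 minus Control or TAT minus Gp120 under any of the 23 alternatives tried. The median member difference stayed below 0 in both comparisons with Control, though not always clearly below that of all gene names. Without Control B it was -0.077 beside -0.063 for TAT and -0.046 beside -0.045 for Gp120. With the letter as a replicate block the medians were -0.13 for TAT, -0.13 for Gp120 and 0.01 between them, with 66, 62 and 39 members below 0, and 0 were called. With the slide row as a block the medians were -0.22 for TAT and -0.24 for Gp120. Gp120 gave -0.26 with the scan as a block, with scan 2 arrays only and with row 1 arrays only. These are 1 estimate and not separate ones, since each sets Gp120 A alone against the 2 controls. TAT minus Gp120 gave 0.16 with the scan as a block and with scan 2 arrays only, with 18 members below 0. This is again 1 estimate, which rests on Gp120 A. In the deposited value table TAT minus Gp120 was 0.13, with 21 below 0. Its sign turned when TAT B, TAT C or Gp120 A was left out, over a range of -0.06 to 0.06. The count of members called between letters was 5 of 81 as reported (6.17%, all gene names 15.4%). It was 0 with the slide row as a block, with scan 2 arrays only and in the deposited table, 1 with the scan as a block, 2 with no filter on dim probes, 8 with an intensity trend, and 9 with normexp or with array weights. Leaving out each array gave 0 to 2, which follows in part from fewer samples. Otherwise the cause was not tested. The shares over all gene names under these alternatives are not given here, so the counts do not set members apart from other genes. Leaving out a control array left a lone control, assumed to vary like the other groups. The letter test could not be fitted on row 1 arrays alone. Of the 2534 values of single genes under alternatives, 199 moved by more than the within-group SD and 62 lost a call. All 62 were letter calls of the 5 members called there, each refitted under 19 or 20 alternatives. No named gene had a call between groups, so none could be lost or reversed there. Turns of sign in single genes were not counted. The few arrays limit every comparison here, and signal over background limits COX6A2, COX4I2 and COX7B2.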
